A study of Mus musculus with 3 samples.

Results

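Macrophages are the most numerous resident immune cells of many embryonic and newborn tissues, and this account covers 32 genes that mark them or leukocytes in general, followed across 3 stages of the developing mouse molar. The genes were taken by symbol from a list chosen with earlier results of these data known. On the array 49 probe sets carry 1 of these symbols alone, among 18193 genes and 34945 probe sets with a single symbol in all. RNA came from dental papillae, the mesenchyme inside the tooth germ from which pulp and odontoblasts form, freed by enzyme treatment from lower first molars of ICR mice at embryonic day 16 (E16), embryonic day 18 (E18) and postnatal day 3 (P3). Each stage is 1 oligonucleotide array of total RNA pooled from over 20 papillae, amplified by a double round of labelling before hybridisation. No genotype, treatment or sex distinguishes the groups in the labels, so stage is the only stated difference.

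Tissue macrophages arise from yolk sac and fetal liver precursors and depend on the receptor Csf1r and on the transcription factor PU.1, which the gene Spi1 encodes. They clear dying cells with scavenger and Fc receptors and with the complement protein C1q, and degrade what they take up in lysosomes. In the dental pulp they are known as resident cells around vessels and near the odontoblast layer. Several genes of the list are also active elsewhere: Lyve1 and Stab1 in some endothelia, Pf4 in platelets, Apoe in many cell types.

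With 1 array a stage there is no spread between samples, so no test, standard error or p-value could be given, and each statement compares 3 pooled samples. The deposited values are ratios, from which a signal in scaled units was recovered for each probe set. A floor was set at 82.0, the median of all recovered signals. A gene was measured in a comparison if at least 1 of the 2 arrays reached the floor, lower values were set to the floor, and a fold with 1 side at the floor is a bound, given as "at least". Each gene is represented by its brightest probe set (highest mean recovered signal). Between probe sets of the same gene the log2 difference of P3 against E16 had a pooled SD of 0.61 over 3982 genes, the only measure of error at hand, and 2-fold, a log2 difference of 1, was the threshold. The dental mesenchyme markers had 12 of 12 genes at or above the floor on at least 1 array. The summed signal of 12 dental epithelium markers was 7652 at E16, 24488 at E18 and 12920 at P3. For actin, the probe sets near the 3' end against those near the 5' end, which track RNA integrity and labelling, gave a ratio 3.87 times as high at E18 and 2.46 times as high at P3 as at E16. The same ratio for Gapdh was 1.42 times as high at E18 and 0.355 times as high at P3, so at P3 these controls differed in direction. The 18 hybridisation control probe sets had a median ratio of 2.17 for E18 over E16 and 1.04 for P3 over E16. The E18 array thus differed in these controls by about the 2-fold threshold. The part of these values in the results was not tested.

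Macrophage and leukocyte genes were mostly higher after birth. Of 26 members measured in P3 against E16, 16 were at least 2-fold higher and 0 lower, where 6.58% of all 12192 genes measured were higher and 15.6% lower. The median log2 difference was 1.38 for the members and -0.17 for all genes. Signals were lowest at E16, intermediate at E18 and highest at P3 in 17 of the 26 members, an order seen in 13.9% of 12540 genes, and P3 was the highest array in 21 of 26 against 25.4% of genes. These orders were read from the recovered signals without the floor. For C1qa and C1qc, counted among the 17, both the E16 and the E18 signal were below it. In all, 11 of the 26 were below the floor at E16 and were counted only because a later array reached it. For those E16 could not be the highest. The shares over 12540 genes cover genes of every kind and are not matched to these members. Quantile normalization gave 1229 genes higher and 1282 lower in place of 802 and 1902, with 17 members higher and 0 lower. With the floor doubled 11 of 20 members were higher, beside 6.03% of all genes measured. Cd53, C1qa, Fcgr3, Cd14 and Ly86 were then short of 2-fold, as were Tyrobp and Ctss on the log2(signal + 50) scale. In such bulk samples more macrophages and more of these transcripts per macrophage cannot be told apart.

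**Figure D1:**
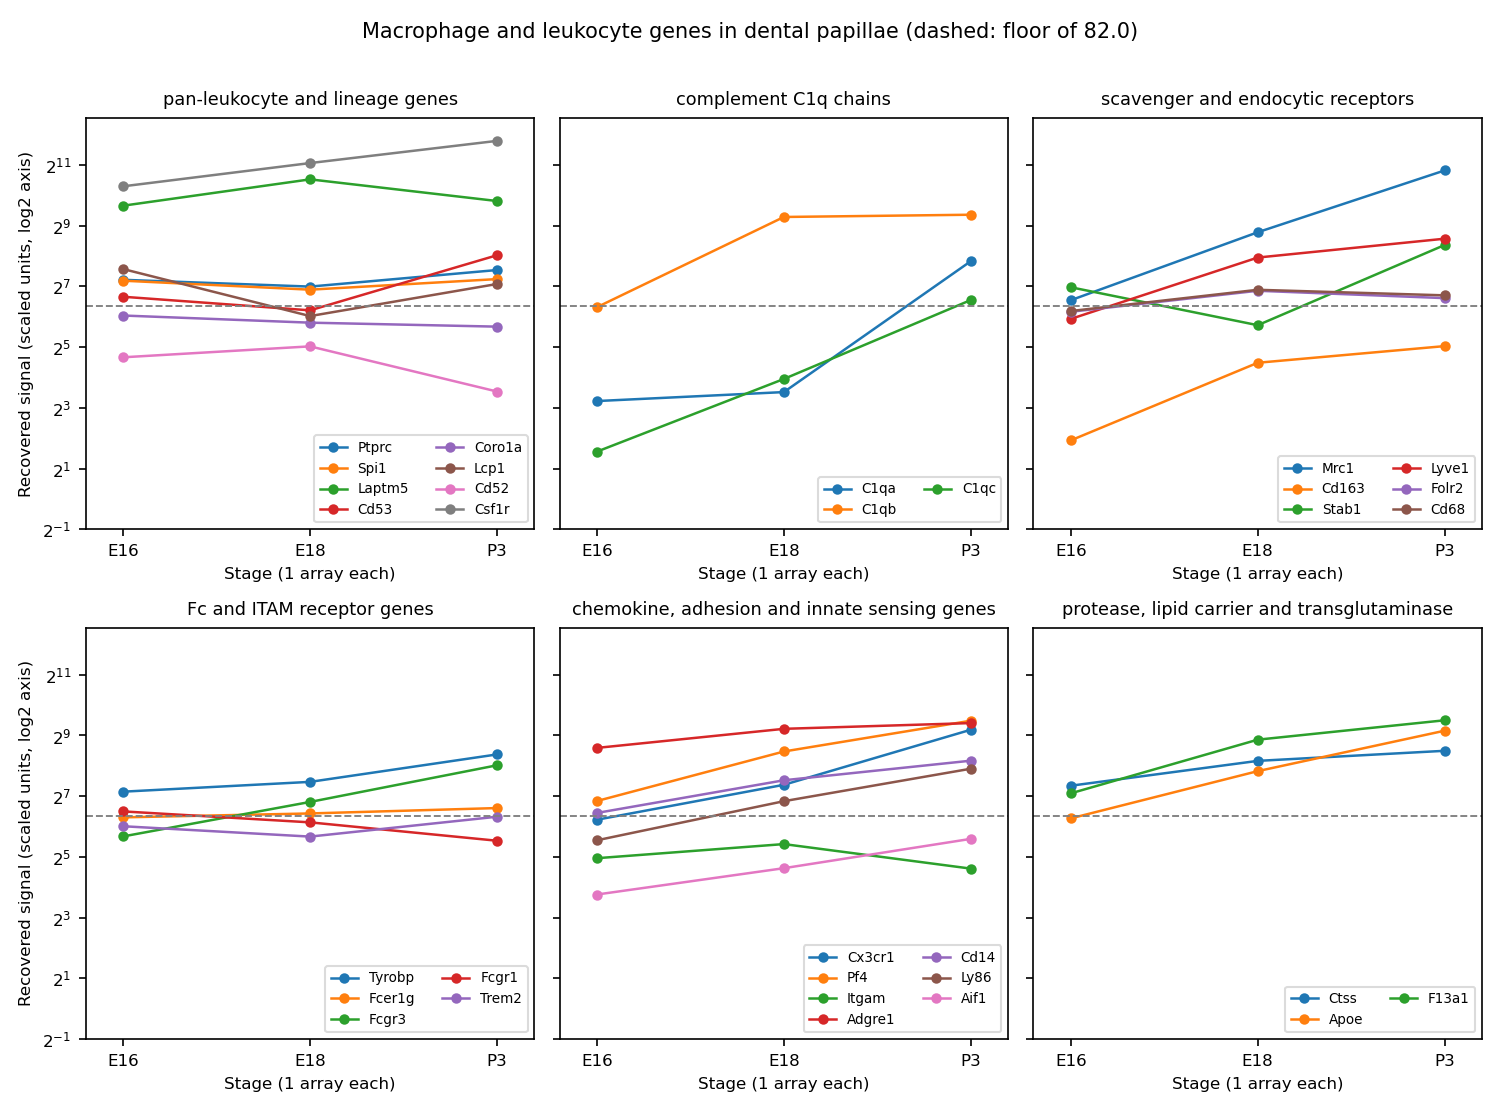
Recovered signal in scaled units on a log2 axis (y) at E16, E18 and P3 (x, 1 array each) for the brightest probe set of each of the 32 genes, in 6 panels by role; the dashed line is the floor of 82.0. Most receptor genes slope upward through all 3 stages, while Ptprc and Spi1 dip slightly at E18 and Laptm5 has its peak there.

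The list fell into genes weak at E16 and genes above the floor throughout. On all 3 arrays 11 members were at or above the floor (Ptprc, Spi1, Laptm5, Csf1r, Mrc1, Tyrobp, Pf4, Adgre1, Cd14, Ctss and F13a1), and of these 7 were at least 2-fold higher in P3 than in E16 papillae and 0 lower, against 5.97% and 17.1% of the 9861 genes of that kind. At E18 against E16, 4 of these 11 were higher and 0 lower (8.22% and 8.29% of such genes), and at P3 against E18, 2 were higher (3.38%). Another 11 were below the floor at E16 and reached it later (C1qa, C1qb, C1qc, Lyve1, Folr2, Cd68, Fcer1g, Fcgr3, Cx3cr1, Ly86 and Apoe). These could only come out higher. Of them 7 were at least 2-fold higher at P3, against 19.2% of the 1010 genes with the same restriction. At E18 against E16 it was 4 of 9, against 16.7% of 852 genes. Cd53, Lcp1, Stab1 and Fcgr1 were above the floor at E16 but not on every later array. The remaining 6, Coro1a, Cd52, Cd163, Trem2, Itgam and Aif1, stayed below it on all 3 arrays. The members nearest the floor at E16 were C1qb at 79.6 and Fcer1g at 78.9 below it, and Cd14 at 87.3 and Fcgr1 at 90.4 above.

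RefSeq's promoter table (build GRCm38.p6) holds 24 of the 32 genes. The 250 bases before the transcription start are shown for Mrc1, Pf4 and Cx3cr1, which had differences or bounds above 6-fold in P3 against E16. Apoe, at least 6.96-fold higher, has several windows and is not shown. Also shown are C1qb and C1qc, neighbouring genes in that annotation that encode chains of the same protein. Capitals mark the letters GAGGAAG, a core of the binding motif of PU.1, or their reverse complement.
Mrc1, chr2:14229164-14229413, plus strand: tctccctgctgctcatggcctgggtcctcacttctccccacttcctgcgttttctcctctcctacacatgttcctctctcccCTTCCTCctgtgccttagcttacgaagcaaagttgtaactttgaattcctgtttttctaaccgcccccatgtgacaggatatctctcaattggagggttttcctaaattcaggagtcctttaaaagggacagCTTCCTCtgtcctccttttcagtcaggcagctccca
Pf4, chr5:90772185-90772434, plus strand: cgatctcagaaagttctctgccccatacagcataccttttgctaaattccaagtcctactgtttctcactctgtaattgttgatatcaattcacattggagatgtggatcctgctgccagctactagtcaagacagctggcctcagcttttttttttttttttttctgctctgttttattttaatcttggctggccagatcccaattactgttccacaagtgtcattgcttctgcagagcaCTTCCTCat
Cx3cr1, chr9:120068297-120068546, minus strand: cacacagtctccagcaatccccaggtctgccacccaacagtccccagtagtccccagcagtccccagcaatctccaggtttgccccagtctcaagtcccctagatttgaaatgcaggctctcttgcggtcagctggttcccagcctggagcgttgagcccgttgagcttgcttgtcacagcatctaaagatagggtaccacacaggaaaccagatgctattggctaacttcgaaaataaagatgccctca
C1qb, chr4:136886201-136886450, minus strand: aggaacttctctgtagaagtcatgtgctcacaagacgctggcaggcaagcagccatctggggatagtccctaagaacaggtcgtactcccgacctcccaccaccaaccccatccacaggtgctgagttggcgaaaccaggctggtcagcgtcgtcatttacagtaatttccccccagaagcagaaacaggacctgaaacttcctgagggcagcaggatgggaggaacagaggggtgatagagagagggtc
C1qc, chr4:136892915-136893164, minus strand: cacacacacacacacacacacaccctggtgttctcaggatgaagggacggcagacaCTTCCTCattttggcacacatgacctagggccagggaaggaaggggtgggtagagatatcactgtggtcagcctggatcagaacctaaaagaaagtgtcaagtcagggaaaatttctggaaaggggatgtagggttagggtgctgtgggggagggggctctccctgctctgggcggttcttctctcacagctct
Read on both strands, GAGGAAG occurred in this window in 9 of the 24 members (37.5%: C1qc, F13a1, Fcgr1, Fcgr3, Itgam, Laptm5, Mrc1, Pf4 and Trem2) and in 12% of 27025 genes. Mrc1 held it at 168 and 36 bases before the start, C1qc at 194 and Pf4 at 9, each on the opposite strand, and the windows of Cx3cr1 and C1qb did not hold these letters. Those 9 genes include members with large differences and members below the floor on every array. The RUNX core TGTGGTT was in 0 of 24 members and 5.08% of genes, and the TATA box letters TATAAA in 4 of 24 (Apoe, Ctss, Laptm5 and Ptprc) and 14.3% of genes. In the 5 windows shown no TATAAA or TGTGGTT was found, so no motifs overlapped there. Genes with several starts had more than 1 window, and a match is a description of letters, not of binding.

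Scavenger and endocytic receptors included the member with the largest fold among those at or above the floor on both the P3 and the E16 array. Folds given as bounds cannot be ranked against it. Mrc1, the mannose receptor that takes up glycoproteins, had signals of 93.3 at E16, 440.0 at E18 and 1804 at P3. Each later array was well above the one before, and P3 was 19.3-fold above E16, rank 3 among genes at or above the floor on both arrays. E18 was 4.72-fold above E16, and P3 4.10-fold above E18. Lyve1, a hyaluronan receptor of a resident macrophage subset and of lymphatic endothelium, had 60.9, 247 and 379.7 at the 3 stages, at least 4.63-fold higher in P3 than in E16 papillae. A further Lyve1 probe set had 5.31, 52.3 and 277, at least 3.38-fold higher in P3 than in E16 papillae. Both had the order E16, E18, P3 from low to high, but only the brightest was above the floor at E18.

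Stab1, a scavenger receptor shared by macrophages and sinusoidal endothelium, took another course, with signals of 125, 52.7 and 329 at E16, E18 and P3. It was lowest at E18, below the floor, and 2.62-fold higher in P3 than in E16 papillae. Folr2, a folate receptor of resident macrophages, had 71.6, 116 and 97.8, and Cd68, a lysosomal membrane protein of phagocytes, had 72.8, 118 and 104. Both lay near the floor at all stages with the highest signal at E18, and at P3 were at least 1.19-fold and at least 1.27-fold above E16. Cd163, the haptoglobin-haemoglobin receptor, stayed under the floor with 3.80, 22.4 and 32.7. Among 4 measured genes of lymphatic and sinusoidal endothelium, Flt4, a lymphatic growth factor receptor, had 169.7 at P3 and 196 at E16. Stab2 had 80.8 at P3 and 84.9 at E16, and Prox1, the defining lymphatic transcription factor, was below the floor on all 3 arrays. Pdpn, which odontoblasts and other cells also make, was 2.25-fold and Reln 1.80-fold higher in P3 than in E16 papillae.

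The C1q genes encode the 3 chains of the protein that starts the classical complement pathway and tags cells for removal. C1qa had signals of 9.33, 11.4 and 227 at E16, E18 and P3, and C1qc had 2.94, 15.4 and 93.6. Both reached the floor at P3 alone, at least 2.77-fold above E16 for C1qa and at least 1.14-fold for C1qc. C1qb had 79.6, 624 and 656 by its brightest probe set, at least 8.0-fold higher in P3 than in E16 papillae, and nearly all of it was present at E18 (at least 7.60-fold against E16, 1.05-fold for P3 against E18). A second C1qb probe set behaved alike with 17.4, 293 and 259, but the remaining one, with 9.33, 60.0 and 135, was below the floor at E18, as C1qa and C1qc were. Both brighter ones have a suffix that marks probes that may also bind other transcripts. The dimmest does not, and by it the P3 difference was at least 1.64-fold. The time of the C1qb difference therefore depended on the probe set.

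Of 5 measured genes for chemokine handling, adhesion and innate sensing, 4 were at least 2-fold higher in P3 than in E16 papillae and 0 lower, where 6.58% of all genes measured were higher. Cx3cr1, the fractalkine receptor of resident macrophages and microglia, had signals of 74.8, 166 and 583 at E16, E18 and P3, at least 7.11-fold higher in P3 than in E16 papillae. Its other probe set stayed below the floor with 16.4, 7.99 and 33.2. Pf4, a chemokine of platelets and of some tissue macrophages, had 115, 355 and 717, a 6.25-fold difference between P3 and E16. Platelet markers were measured beside it. Itga2b, the defining platelet integrin chain, had 169.8 at P3 and 179 at E16, and Ppbp was below the floor throughout. Of 4 measured platelet genes 0 were 2-fold higher and 1, Itgb3, was lower (at least 2.10-fold), beside 6.58% and 15.6% of all genes. Treml1 was 1.32-fold and Gp1bb 1.28-fold higher, and the median log2 difference of the 4 was 0.14. The part of platelets in the Pf4 signal was not tested.

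Cd14, a co-receptor for bacterial lipopolysaccharide, had 87.3, 184 and 288 at the 3 stages and was 3.30-fold higher in P3 than in E16 papillae. Ly86, which encodes a partner of an atypical Toll-like receptor, had 46.8, 114 and 239.6, at least 2.92-fold higher at P3. Adgre1, the adhesion receptor most used to identify mouse macrophages, was already at 385 at E16, then 596 at E18 and 679 at P3. It ran in the same order but stayed under 2-fold, at 1.76-fold for P3 against E16. Itgam, an integrin chain of neutrophils and monocytes, had 31.1, 42.9 and 24.5, and Aif1, a cytoskeletal protein of microglia and macrophages, 13.6, 24.7 and 48.3, all below the floor.

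Fc receptor genes and their adaptors were divided. Tyrobp, the adaptor that carries an activating (ITAM) motif for many myeloid receptors, had signals of 142, 177 and 332 at E16, E18 and P3, 2.34-fold higher in P3 than in E16 papillae. Fcgr3, a low-affinity receptor for immunoglobulin G, had 51.1, 112 and 259, at least 3.16-fold higher at P3. Fcer1g, the common signalling chain of Fc receptors, stayed around the floor with 78.9, 86.3 and 97.6. Fcgr1, the high-affinity receptor, ran downward by its brightest probe set, with 90.4, 70.4 and 46.3, and by its other probe set was below the floor at 17.4, 23.1 and 45.9. Trem2, a lipid-sensing receptor of phagocytes that signals through Tyrobp, stayed just under the floor with 64.4, 50.9 and 80.1.

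**Figure D2:**
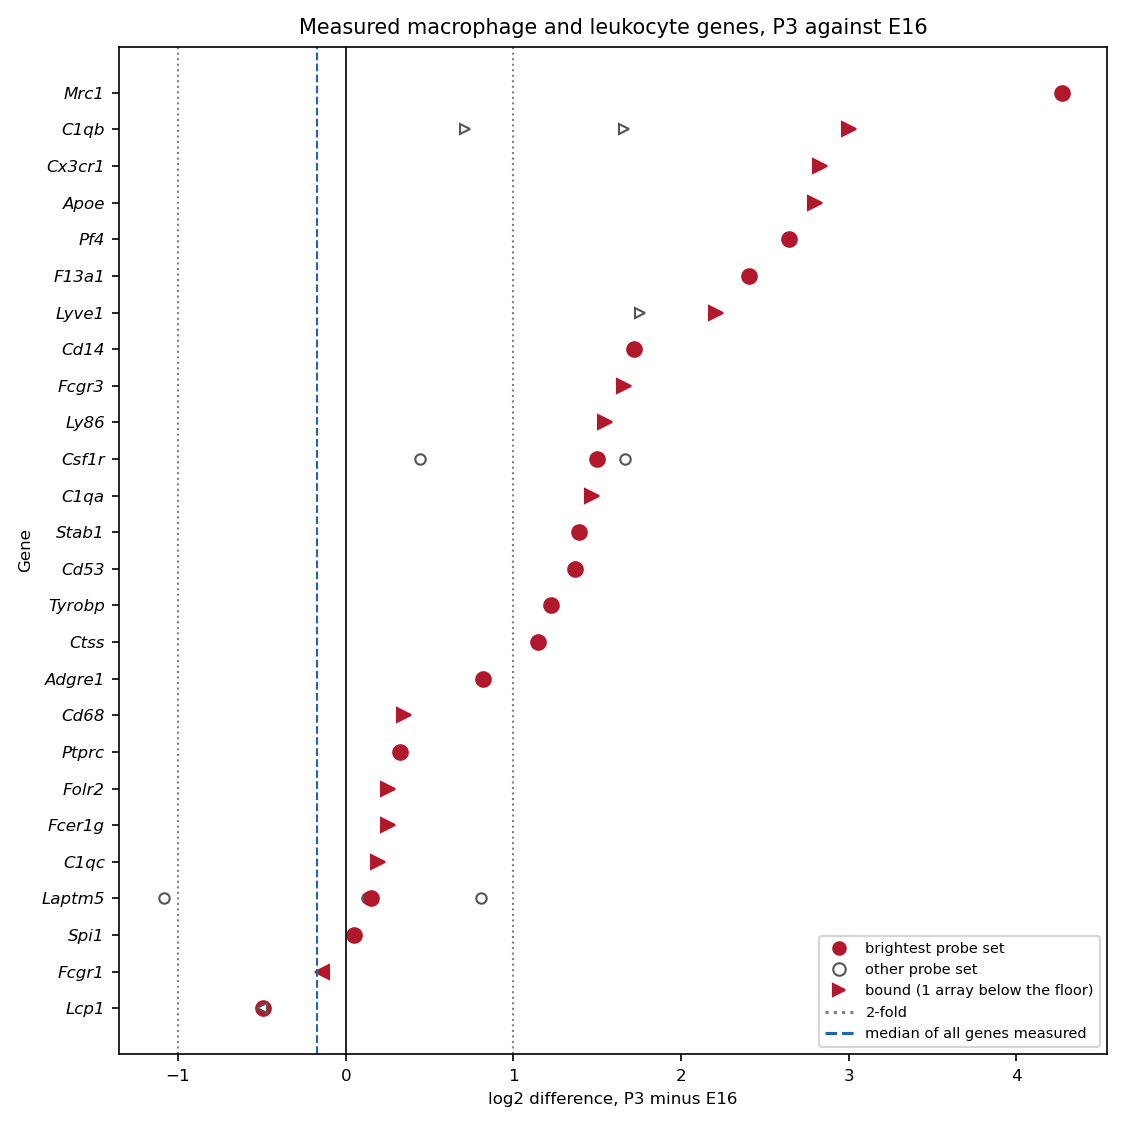
Log2 difference of P3 minus E16 (x) for the 26 measured genes (y); filled red symbols are the brightest probe sets, open ones the other measured probe sets, triangles are bounds, dotted lines mark 2-fold and the blue dashed line the median of all genes measured. Mrc1 lies at 4.27, farthest right of the genes measured on both arrays, 16 genes lie beyond the 2-fold line, and the probe sets of Laptm5 lie on both sides of 0.

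Genes that mark all leukocytes or the lineage had the lowest median log2 difference of the 6 roles, 0.24 for P3 against E16 over 6 measured genes. Of these 2 were at least 2-fold higher and 0 lower, beside 6.58% and 15.6% of all genes measured. Ptprc, the leukocyte common antigen, had signals of 149, 127 and 186 at E16, E18 and P3, 1.25-fold higher in P3 than in E16 papillae. Spi1 had 146, 119 and 151, a 1.04-fold difference. Both were lowest at E18, and their differences from E16 were below 1 SD between probe sets. For Ptprc the log2 difference of P3 against E18 was 0.545, about the SD of 0.538 for that comparison. Laptm5, a lysosomal protein of haematopoietic cells, had 807, 1472 and 898 by its brightest probe set and was 1.11-fold higher in P3 papillae, but its 4 measured probe sets ran from 1.75-fold higher to 2.12-fold lower, so no direction can be given for it. For Csf1r and Laptm5 the recovered level is less certain than the ratio between stages.

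Csf1r, the receptor for the macrophage growth factors, was higher at P3 by all 3 probe sets. The brightest had 1256, 2135 and 3542 at the 3 stages, 2.82-fold for P3 against E16. The others had 287, 321 and 909.7 (3.17-fold) and 233, 225 and 318 (1.36-fold). By those, E18 differed little from E16 and the difference lay between E18 and P3. Cd53, a tetraspanin of leukocytes, had 101, 74.0 and 260.2, 2.58-fold higher in P3 than in E16 papillae and at least 3.17-fold higher than at E18. Lcp1, an actin-bundling protein of leukocytes, had 189.9, 64.9 and 135, at least 2.31-fold lower in E18 than in E16 papillae and 1.41-fold lower in P3 than in E16 papillae. A second Lcp1 probe set had 116, 80.7 and 22.2. Coro1a, an actin regulator of leukocytes, reached at most 65.7 by its 3 probe sets, and Cd52, a lymphocyte and myeloid surface peptide, at most 32.5.

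The last 3 members were all at least 2-fold higher in P3 than in E16 papillae, where 6.58% of all genes measured were. F13a1, the factor XIII subunit that cross-links fibrin and marks a resident macrophage type, had signals of 137, 465 and 724, a 5.30-fold difference. Apoe, the lipid carrier, had 77.1, 227 and 571, at least 6.96-fold higher at P3. Ctss, a lysosomal protease of antigen processing, had 163, 287 and 361, 2.22-fold higher at P3. In each the signal was higher at E18 than at E16 and higher again at P3.

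Members differed by 2-fold on both sides of E18. At E18 against E16, 8 of 24 measured members were at least 2-fold higher and 1, Lcp1, lower, where 8.09% of 12034 genes were higher and 8.13% lower. Lcp1 was short of 2-fold with the floor doubled or probe sets averaged. The median log2 difference was 0.58 for the 24 members, against -0.04 for all genes. The 8 were C1qb, Mrc1, F13a1, Pf4, Lyve1, Apoe, Cd14 and Cx3cr1. With the floor doubled Lyve1, Apoe, Cd14 and Cx3cr1 were short of 2-fold. So were Lyve1 with probe sets averaged, Cd14 and Cx3cr1 on the log2(signal + 50) scale, and Cx3cr1 with median scaling. At P3 against E18, 9 of 25 were at least 2-fold higher and 0 lower, beside 4.08% of 12115 genes higher and 11.8% lower, and medians of 0.64 for members and -0.15 for all genes. The 9 were Mrc1, Stab1, Cx3cr1, Cd53, C1qa, Apoe, Fcgr3, Ly86 and Pf4. With the floor doubled Cd53, C1qa, Fcgr3 and Ly86 were short of 2-fold, as were Fcgr3, Ly86 and Pf4 on the log2(signal + 50) scale. Mrc1, Cx3cr1, Apoe and Pf4 passed 2-fold at both steps, but of these Mrc1 alone did so under all 8 alternatives. Both comparisons share the E18 array, so an error of that array would raise 1 step and lower the other.

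**Figure D3:**
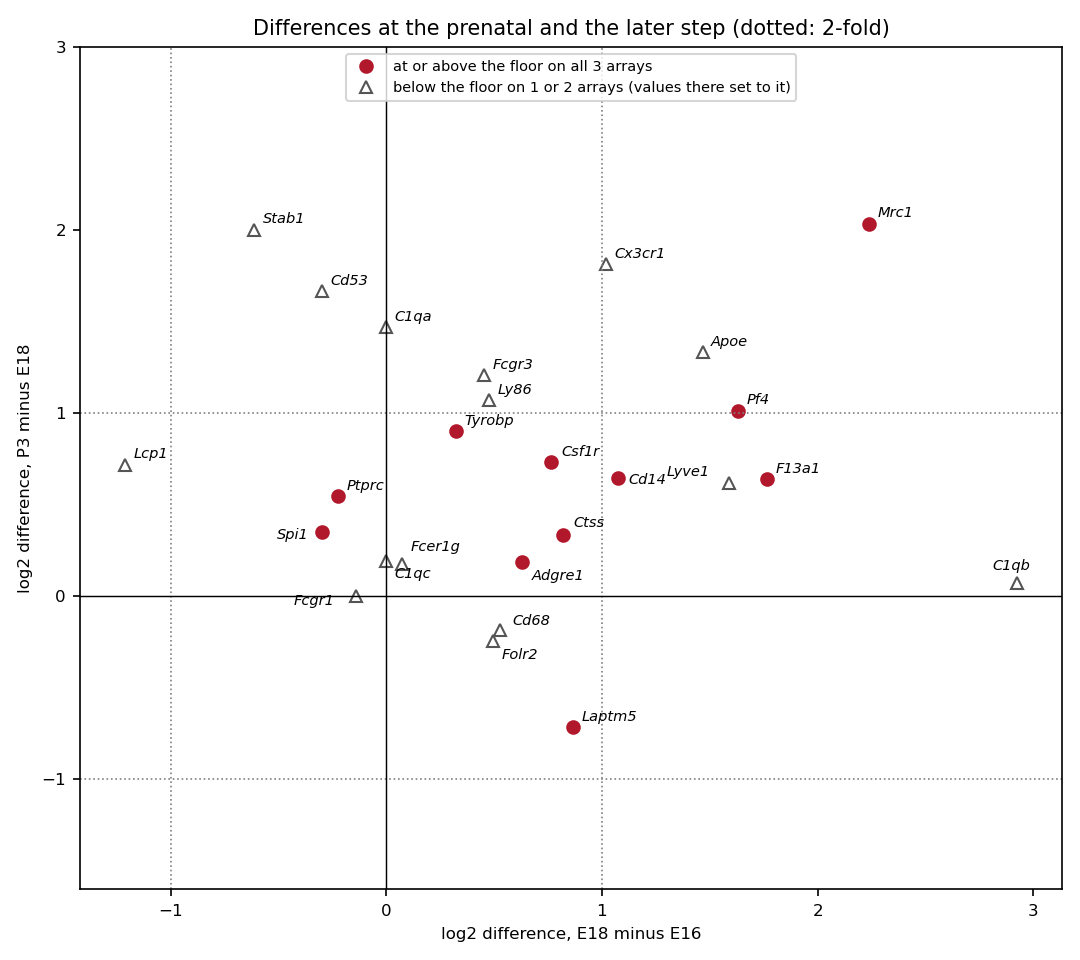
Log2 difference of E18 minus E16 (x) against that of P3 minus E18 (y) for the 26 genes at or above the floor on at least 1 array; filled points were above it on all 3, open triangles have 1 or 2 values set to the floor, and dotted lines mark 2-fold. Mrc1 is far out on both axes at 2.24 and 2.04, C1qb lies on the right alone, and Stab1 and Cd53 are high on the y axis alone.

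Of the total log2 difference between E16 and P3, the share present at E18 varied among the 7 members above the floor throughout and at least 2-fold higher. It was 73.4% for F13a1, 71.1% for Ctss, 62.5% for Cd14, 61.7% for Pf4, 52.4% for Mrc1, 51.2% for Csf1r and 26.3% for Tyrobp. For Csf1r this depends on the probe set: by the dimmer ones E18 lay close to E16. These shares come from single arrays and carry no error. By contrast Cd53 and Stab1 were below the floor at E18, and their differences lay wholly after it.

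Genes of the same biology outside the list were tallied from lists that, like the members, were chosen with earlier results of these data known. Their counts are a description, not independent support. The shares over all genes measured in P3 against E16 were 6.58% at least 2-fold higher and 15.6% lower. Of 25 measured genes among 40 other macrophage genes, 7 were at least 2-fold higher in P3 than in E16 papillae and 0 lower (median log2 difference 0.57). Ms4a6d, a membrane protein of myeloid cells, was at least 4.10-fold higher (336 at P3, 22.9 at E16). Ms4a6b was 3.48-fold (413 and 119) and Mpeg1, a pore-forming protein of phagosomes, 3.05-fold higher (448 and 147). Cebpb, a transcription factor of myeloid and many other cells, was at least 3.52-fold higher (288 and 27.6). Below the floor on all arrays were 10 of the 40, among them Cd86, Clec7a and Il10ra.

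Fc and ITAM signalling genes were nearly level, with 1 of 13 measured at least 2-fold higher in P3 than in E16 papillae, 0 lower and a median of 0.05. Among all genes measured 6.58% were higher and 15.6% lower, so the count of higher genes lay near that share. The higher gene was Blnk, an adaptor of B cells and macrophages, at least 2.02-fold (166 at P3, 35.0 at E16). Itgb2, the beta chain shared by leukocyte integrins, was at least 1.94-fold lower (45.3 and 159). Of 6 measured complement genes other than C1q, 3 were higher and 0 lower (median 0.77). C2, a protease of the classical pathway, had 542 at P3 and 7.10 at E16, at least 6.61-fold by its brightest probe set and at least 4.53-fold and 3.53-fold by 2 others. Cd59a, which protects cells from lysis, was 3.70-fold and Serping1, the C1 inhibitor, 3.00-fold higher at P3. Among 7 measured microglia genes 1 was higher and 1 lower (median 0.58). Fcrls, an Fc receptor-like protein of microglia and other macrophages, was 3.25-fold higher (378 at P3, 116 at E16), and Tmem119, which bone-forming cells also make, 2.82-fold lower (353 and 994).

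Of 10 measured growth factors, chemokines and their receptors, 2 were higher by 2-fold or more in P3 than in E16 papillae, and 1 was lower (median 0.28). Among all genes measured 6.58% were higher and 15.6% lower. Csf1, the main ligand of Csf1r, was 2.21-fold higher by its brightest probe set (373 at P3, 169 at E16) and 1.14-fold by another. Il34, the other ligand, was below the floor on all arrays. Cxcl12, a chemokine of mesenchyme, was 2.29-fold higher by 1 probe set and 1.28-fold lower by another. Ccr2, the chemokine receptor of monocytes, was at least 2.08-fold lower (36.5 at P3, 171 at E16), and at least 1.26-fold lower by its other probe set. Ccl9, with 63.5 at P3 and 164 at E16, was just short of 2-fold lower.

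Many markers of other blood cells were below the floor, and most of those measured were within 2-fold in P3 against E16. Among all genes measured 6.58% were at least 2-fold higher and 15.6% lower. Values set to the floor also shrink differences near it. A count of 0 past 2-fold among so few genes therefore does not show that those cells were level. Of 3 measured T and natural killer cell markers, 3 B cell markers, 3 neutrophil markers and 6 markers of antigen-presenting cells, 0 were 2-fold different at P3 in either direction, with medians of -0.26, -0.02, 0.08 and 0.04. Cd3d, Cd3e and Cd3g, the defining T cell genes, Cd79a and Cd79b of B cells, S100a8, S100a9 and Elane of neutrophils and H2-Ab1 of antigen-presenting cells were below the floor on all arrays. Other genes of these lists were at or above it on all 3 arrays. They were Ms4a1 of B cells, Ngp and Ltf of neutrophils and H2-Eb1, Cd74 and Zbtb46 of antigen-presenting cells. H2-Eb1 had 140, 115 and 121 and Ngp 172, 103 and 160 at E16, E18 and P3. The summed signals at E16, E18 and P3 were 465, 298 and 469 for 9 T and natural killer cell genes and 494, 501 and 589 for 11 neutrophil genes. Of 3 measured mast cell markers, Kit was 5.94-fold higher at P3 (1544 against 260.1 at E16), while Cpa3, the mast cell carboxypeptidase, had 155 at P3 and 123 at E16, and Mcpt4, Tpsb2 and Fcer1a were below the floor throughout. Erythroid genes ran the other way: 3 of 4 measured were at least 2-fold lower at P3 and 0 higher (median -1.89), with Alas2, the haem synthesis enzyme of red cells, at 116 at P3 and 763 at E16. Their summed signal over 9 genes was 1907, 556 and 506 at E16, E18 and P3.

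**Figure D4:**
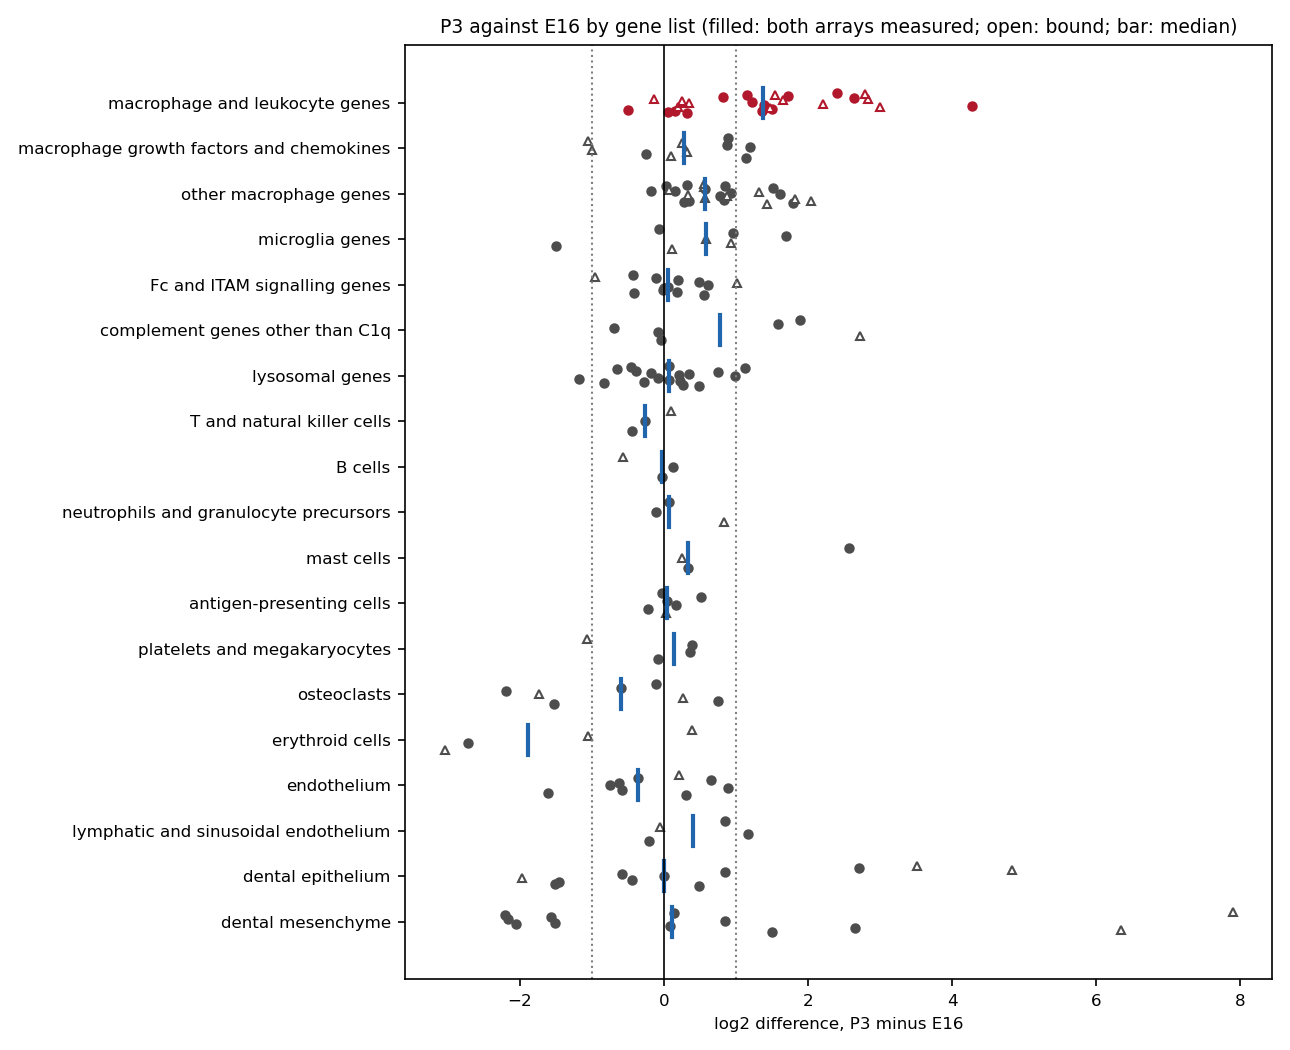
Log2 difference of P3 minus E16 (x) by gene list (y), with the macrophage and leukocyte genes in red at the top; filled points were measured on both arrays, open triangles are bounds, blue bars are list medians and dotted lines mark 2-fold. The red list has its bar at 1.38, the T cell, B cell and neutrophil lists hold 3 points each within 2-fold, and the erythroid bar lies at -1.89.

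Vascular markers were mostly within 2-fold in P3 against E16. Of 9 measured endothelial genes 0 were at least 2-fold higher in P3 than in E16 papillae and 1 was lower (median -0.36). Among all genes measured 6.58% were higher and 15.6% lower. Kdr, the main vascular growth factor receptor, had 846 at P3 and 2571 at E16, and Emcn, a sialomucin of capillaries, 257 at P3 and 139 at E16. At E18 against E16, 4 of 9 endothelial genes were lower and 0 higher (median -0.50), beside 8.13% and 8.09% of all genes. The dental epithelium list was highest at E18 in summed signal. Of its 10 measured genes all 10 were at least 2-fold higher in E18 than in E16 papillae, beside 8.09% of all genes. In P3 against E18 papillae 8 of 11 were at least 2-fold lower and 2 higher, beside 11.8% and 4.08% of all genes. The 2 were Amelx (4.14-fold) and Enam (at least 11.4-fold). In that comparison 9 of 25 macrophage and leukocyte genes were higher and 0 lower.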

How the data were processed

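The authors deposited ratios for 45101 probe sets, 64 of them controls, on 3 arrays; per the submitters' processing notes GCOS was used, no version being stated, and no source used here gives the scaling or centring. The design had assumed signals. In 90.4% of probe sets the middle of the 3 deposited ratios was 1 within 1e-06. Of the values in the remaining 4347, 99.98% were within 0.01 of whole steps of 1 size per array, which gave array factors of 0.718 (E16) and 1.08 (E18) relative to P3. Each signal was recovered as the smallest set of whole steps of 0.1 that matched the ratios within 3e-07. It may be understated by a common factor, so a gene called below the floor may lie above it, but bounds are not inflated. For 30 of 32 members under 0.05 chance solutions were expected. For Csf1r and Laptm5 the recovered level, but not the ratio between stages, may be a chance match. The scripts were tested on simulated data.

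Gene symbols came from the platform annotation; 932 probe sets with several symbols and 9160 not listed were not used. The 32 members were named in full, and genes of the other lists were taken mostly from the 4 measured ones of each with the largest P3 against E16 difference; defining markers and other genes below the floor were added after their values were seen. Members and lists were chosen with earlier results of these data known. There were 8 alternatives. The number of arrays limits the precision. Python 3.11.15, numpy 2.4.6, pandas 2.3.3 and matplotlib 3.10.9 were used. Promoter sequences are RefSeq's, build GRCm38.p6.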

Additional observations from a re-analysis of the deposited data

How the results depend on the processing

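No paired analysis was possible because each stage has 1 array. In P3 against E16 the count of members at least 2-fold higher was 11 to 19 under the 8 alternatives, against 16 as reported, and the members' median log2 difference 1.01 to 1.63. The 11 were of 20 measured with the floor doubled, and the 19 of 32 with no filter on low values. Quantile normalization shifted the all-gene median to 0.02 (-0.17 as reported) and the members' to 1.55, with 17 higher. Median scaling shifted them to 0.10 and 1.63, also with 17 higher. The members' median lay 1.55 above that of all genes as reported and 1.53 above it under either scaling. All genes higher and lower numbered 1267 and 1175 with median scaling. At P3 against E18 they were 494 and 1426 as reported, 795 and 873 by quantiles and 758 and 976 by medians, and at E18 against E16 974 and 978 as reported and 1133 and 755 by medians. With the floor doubled, 4 of 14 members were higher at E18 than at E16 and 0 lower, beside 8.03% and 8.07% of all genes. At P3 against E18, 5 of 19 were then higher, beside 3.52%. With that floor 3 members were above it on all arrays. With the floor halved, 26 were, and 2 were lower at E18 than at E16. Without _s_at, _x_at and _a_at probe sets 1 member, Laptm5, was lower at P3 than at E16, and C1qb was at least 1.64-fold higher. Averaging probe sets left 0 lower at E18 than at E16. With no filter on low values 1 was lower at P3 than at E16, 2 at E18 than at E16 and 1 at P3 than at E18. Of 562 member differences recomputed, 506 moved by less than 1 SD between probe sets, 56 by more, and 0 called ones turned direction. Mrc1, Csf1r, Stab1, Lyve1, Cx3cr1, Pf4, Apoe and F13a1 stayed past 2-fold at P3 against E16 under every alternative that gave them a value. Cd53, C1qa, Fcgr3, Cd14 and Ly86 lost it with the floor doubled, Tyrobp and Ctss with log2(signal + 50), and C1qb without those probe sets. Low signals limit the C1q, Fc receptor and other weak genes, whose folds are bounds.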

Other observations

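Lysosomal genes, which macrophages share with nearly every cell, were nearly level as a group. All 18 with a probe set were measured in P3 against E16, with 1 at least 2-fold higher, 1 lower and a median log2 difference of 0.07. Among all genes measured 6.58% were higher and 15.6% lower. Lipa, the lysosomal lipase, was 2.18-fold higher (472 at P3, 216 at E16) but 1.18-fold by another probe set. Lgmn, an asparagine-specific protease, was 1.99-fold higher (469.8 and 236). Ctsz, a carboxypeptidase, was 2.26-fold lower (495 at P3, 1117 at E16), and 2.56-fold and 1.49-fold lower by 2 other probe sets. Ctsc, which activates serine proteases of granulocytes, was 1.78-fold lower (2189 and 3901).

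Osteoclasts, which share the Csf1r lineage with macrophages, had 3 of 7 measured markers at least 2-fold lower in P3 than in E16 papillae, with 0 higher (median -0.60). Among all genes measured 15.6% were lower and 6.58% higher. Mmp9, a matrix protease, had 228 at P3 and 1040.0 at E16, 4.55-fold lower. Acp5, the tartrate-resistant acid phosphatase, had 137 at P3 and 395 at E16, 2.89-fold lower. Atp6v0d2, a proton pump subunit, was at least 3.32-fold lower by the brightest probe set and 1.05-fold lower by a second one. Ctsk, the bone-degrading protease, which fibroblasts also make, had 2558 at P3 and 1522 at E16. At E18 against E16 the list had 4 of 6 lower and 0 higher, beside 8.13% and 8.09% of all genes. Csf1r was higher in P3 than in E16 papillae by all 3 probe sets. At E18 against E16 its probe sets differed in direction.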
